A study of Arabidopsis thaliana with 9 samples.

Results

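The EXORDIUM family of Arabidopsis was followed through 6 of its loci, *PHI-1* (*PHOSPHATE-INDUCED 1*, also called *EXL1*), *EXO* (*EXORDIUM*) and *EXL2* to *EXL5*, out of 33602 loci with a deposited value. The family was chosen by the measured FPKM of *PHI-1*, which was strongly raised in *pif4-2* seedlings, and so the values of *PHI-1* in *pif4-2* against Col-0 and in *bbx11-1* against *pif4-2* are given as a description without a test. The other 5 loci came with the family, though the list was drawn up with results of these data known, and they were tested. RNA-seq was performed on poly(A) RNA of whole seedlings grown for 4 d in constant red light of 94 μmol/m2/s. The 3 genotypes were *bbx11-1*, a mutant of the B-box transcription factor gene *BBX11*, *pif4-2*, a mutant of the bHLH transcription factor gene *PIF4*, and the wild type Col-0, the accession in which both mutants stand. Each genotype had 3 biological replicates and each mutant was represented by a single allele.

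EXORDIUM proteins are secreted into the cell wall space. *EXO* was identified as a gene that promotes growth and is raised by brassinosteroids, the steroid hormones of cell expansion. *PHI-1* takes its name from a tobacco gene induced when phosphate is returned to starved cells, and its Arabidopsis counterpart *EXL1* is known for a role in growth under carbon limitation. PIF4 is a growth-promoting factor of red light and warm temperature signaling that acts in part through auxin and brassinosteroid genes.

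The level of each locus is given in FPKM, fragments per kilobase of transcript and per M mapped reads, which scales for transcript length and library depth. Differences in RNA composition between libraries are not removed by this scaling. In the text below, log2 fold changes are on the log2(FPKM + 0.5) scale, and a locus was counted as changed at an adjusted p below 0.05 (limma, Benjamini-Hochberg over 19169 tested loci) together with a fold change of at least 2. A locus was tested where the mean of any genotype reached 1 FPKM, which all 6 loci did. In RNA from whole seedlings, a change in the number of cells that express a gene and a change in RNA per cell cannot be told apart.

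The libraries were first checked against their labels. The transcript level of *BBX11* was 9.26 ± 1.53 FPKM in *bbx11-1* and 36.8 ± 35.9 FPKM in Col-0 (SD, n = 3 each), with every *bbx11-1* library below every Col-0 library and 1 Col-0 library at 78.2 FPKM, and the difference did not pass the test (log2 fold change -1.52, adjusted p = 0.231, limma). *PIF4* had 16.9 ± 0.630 FPKM in *pif4-2* and 30.4 ± 4.76 FPKM in Col-0, a log2 fold change of -0.82 (adjusted p = 0.00121, limma), so that transcript of the mutated gene was still counted in *pif4-2*. The spacing of low values corresponded to 17.2 to 19.4 M reads per *bbx11-1* library, 18.64 to 22.08 M per *pif4-2* library and 16.2 to 17.84 M per Col-0 library. The highest depth was in a *pif4-2* library, and its part in the results was not tested. On the first principal component (32.3% of the variance), Col-0 replicate 1 stood at -30.0 and *bbx11-1* replicate 1 at -22.1, apart from the other libraries of their genotypes, which lay between -6.73 and -0.549. Results that lean on Col-0 replicate 1 are therefore also given without it.

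*PHI-1* (AT1G35140) lies on chromosome 1 at 12851983-12853235 on the plus strand, and *EXO* (AT4G08950) on chromosome 4 at 5740219-5741591 on the plus strand (TAIR10.1). *EXL2* (AT5G64260), *EXL3* (AT5G51550) and *EXL4* (AT5G09440) lie on chromosome 5 at 25703649-25705339 (plus), 20939363-20940895 (minus) and 2938193-2939715 (plus). *EXL5* (AT2G17230) lies on chromosome 2 at 7494536-7496292 on the minus strand. Each of the 6 was annotated with 1 transcript and 1 exon, and none overlapped another annotated gene. The encoded proteins were 278 residues (EXL4) to 363 residues (EXL5) long. The closest pair was EXL2 and EXL4, with 82.3% identical residues in the aligned part, followed by PHI-1 and EXO with 67.6%, and the most distant pair was PHI-1 and EXL5 with 34.6%. Even so, the longest stretch that any pair of the 6 transcripts shared was 24 bases (*EXL2* and *EXL4*), and 0 of their 31-base stretches recurred elsewhere in the genome.

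The 250 bases before the annotated start are shown for *PHI-1* and *EXO*, whose fold changes in *pif4-2* were the largest of the 6, and for *EXL2* and *EXL4*, the most similar proteins, whose transcripts differed in their change. The sequences are from RefSeq (TAIR10.1), each written 5′ to 3′ on the strand of its gene, and capitals mark the single match to any of the motifs searched.
PHI-1 (chr1:12851733-12851982, plus strand): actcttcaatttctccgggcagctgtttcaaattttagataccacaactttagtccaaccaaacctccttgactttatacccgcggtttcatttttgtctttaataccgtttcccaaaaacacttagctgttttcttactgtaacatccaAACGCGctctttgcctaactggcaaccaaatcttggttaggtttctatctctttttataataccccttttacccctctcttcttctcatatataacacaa
EXO (chr4:5739969-5740218, plus strand): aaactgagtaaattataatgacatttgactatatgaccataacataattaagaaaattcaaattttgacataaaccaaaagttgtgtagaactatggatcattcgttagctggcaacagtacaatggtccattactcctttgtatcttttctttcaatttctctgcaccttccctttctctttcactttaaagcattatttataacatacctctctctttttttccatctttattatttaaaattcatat
EXL2 (chr5:25703399-25703648, plus strand): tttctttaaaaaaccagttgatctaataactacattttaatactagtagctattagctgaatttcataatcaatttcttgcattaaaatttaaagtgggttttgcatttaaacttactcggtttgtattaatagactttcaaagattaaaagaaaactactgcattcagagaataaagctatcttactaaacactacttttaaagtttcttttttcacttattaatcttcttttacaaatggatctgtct
EXL4 (chr5:2937943-2938192, plus strand): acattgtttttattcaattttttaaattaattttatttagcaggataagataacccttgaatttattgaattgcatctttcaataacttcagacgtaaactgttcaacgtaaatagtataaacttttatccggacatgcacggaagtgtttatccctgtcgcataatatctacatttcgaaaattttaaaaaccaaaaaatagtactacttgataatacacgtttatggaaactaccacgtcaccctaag
The motifs were searched on both strands of a 300-base window that added the first 50 bases of the transcript. CGCGTT, the core of the rapid stress response element, was found once, in *PHI-1*, where it reads AACGCG on the strand shown and begins 100 bases before the start. It was present in 3.40% of 27443 promoter windows of this length. The G-box CACGTG (7.68% of windows), the E-box variant CACATG (12.9%), the brassinosteroid response elements CGTGTG (6.52%) and CGTGCG (1.96%), the W-box sequence TTGACC (14.2%) and the PHR1 site GNATATNC (6.25%) had no match in any of the 6 windows. TTGACC is the W-box core TTGAC with C as its next base. The core followed by T was not searched, and it stands in the *PHI-1* and *EXO* sequences shown, so a lack of W-boxes cannot be read from this search. These matches describe the letters of the window only.

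The expression of *PHI-1* was 41.7, 38.1 and 41.6 FPKM in the *bbx11-1* libraries, 126, 93.5 and 92.6 FPKM in the *pif4-2* libraries and 11.7, 25.8 and 20.5 FPKM in the Col-0 libraries. The genotypes did not overlap, with *pif4-2* highest, *bbx11-1* between and Col-0 lowest. In *pif4-2* the level was 5.49-fold that of Col-0 (log2 fold change 2.46), the 4th largest rise among the tested loci, which is the value that brought the family into view. In *bbx11-1* it was 2.17-fold that of Col-0 (log2 fold change 1.12, 95% CI 0.62 to 1.62), and this difference, which uses the same Col-0 libraries, did not pass the test (adjusted p = 0.0715, limma). Without Col-0 replicate 2, the highest of the Col-0 libraries, the *bbx11-1* difference did pass (log2 fold change 1.36, adjusted p = 0.0308, limma). Without Col-0 replicate 1, the lowest, it was 0.80 (adjusted p = 0.0558, limma), and the *pif4-2* value was 2.14. The low Col-0 values of *PHI-1* were part of the choice of the family. The *bbx11-1* test of *PHI-1* and its refits are therefore not independent of that choice, and no conclusion is drawn from them. Set against *pif4-2*, the *bbx11-1* level had a log2 fold change of -1.34.

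*EXO* had the highest mean level of the 6 loci over the 9 libraries. It was measured at 163, 176 and 135 FPKM in *bbx11-1*, 262, 251 and 264 FPKM in *pif4-2* and 75.5, 152 and 112 FPKM in Col-0. All *pif4-2* libraries lay above all others, whereas *bbx11-1* and Col-0 overlapped. *EXO* rose 2.38-fold in *pif4-2* (log2 fold change 1.25, 95% CI 0.82 to 1.68, adjusted p = 0.00404, limma). Without Col-0 replicate 1 the log2 fold change was 0.99 with an adjusted p of 0.00224 (limma), which falls just short of the fold threshold. In *bbx11-1* the log2 fold change was 0.53 (95% CI 0.10 to 0.96, adjusted p = 0.346, limma), and it was 0.27 without Col-0 replicate 1 and 0.77 without Col-0 replicate 2. Between *bbx11-1* and *pif4-2* it was -0.72 (adjusted p = 0.0974, limma), although the libraries did not overlap. This difference passed the adjusted p, below the fold threshold, in 6 of 20 refits. The adjusted p was 0.00689 when only these genotypes were fitted, 0.00875 without Col-0 replicate 1 and 0.0325 without Col-0 replicate 2 (limma). Over the 20 refits the adjusted p ranged over 0.00689 to 0.276 (limma).

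*EXL2* gave 142, 146 and 135 FPKM in *bbx11-1*, 178, 207 and 168 FPKM in *pif4-2* and 103, 123 and 114 FPKM in Col-0. The order of the genotypes was that of *PHI-1*, again with no overlap, over a much narrower range. Its rise in *pif4-2* was 1.62-fold (log2 fold change 0.69, SE 0.09, adjusted p = 0.00175, limma), below the fold threshold. The log2 fold change in *bbx11-1* was 0.31 (95% CI 0.11 to 0.52, adjusted p = 0.2204, limma), and it was 0.25 without Col-0 replicate 1. For *bbx11-1* against *pif4-2* it was -0.38 (adjusted p = 0.0629, limma). This passed the adjusted p, below the fold threshold, in 4 of 20 refits, among them the one without Col-0 replicate 1 (adjusted p = 0.0357, limma).

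*EXL4* differed in its pattern from *EXL2*, its closest relative. Its level was 29.4, 31.9 and 28.4 FPKM in *bbx11-1*, 26.5, 28.6 and 24.95 FPKM in *pif4-2* and 24.1, 25.1 and 24.9 FPKM in Col-0. The *pif4-2* libraries overlapped those of both other genotypes, and *bbx11-1* was the highest on average. The *pif4-2* difference did not pass the test (log2 fold change 0.11, 95% CI -0.06 to 0.28, adjusted p = 0.565, limma). Every *bbx11-1* library lay above every Col-0 library, with a log2 fold change of 0.27 (95% CI 0.10 to 0.44, adjusted p = 0.203, limma) that did not pass either. Without Col-0 replicate 1 this fold change was 0.25. The ratio of *EXL2* to *EXL4* was 4.72 ± 0.133 in *bbx11-1*, 6.89 ± 0.282 in *pif4-2* and 4.60 ± 0.317 in Col-0 (SD, n = 3 each), so that the pair stood further apart in *pif4-2* than in the other genotypes in every library.

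*EXL3* and *EXL5*, which share 54.9% of their residues, were higher in *pif4-2* by the adjusted p alone, below the fold threshold. Neither passed the adjusted p in *bbx11-1* against Col-0. *EXL3* was at 56.5, 59.6 and 54.5 FPKM in *bbx11-1*, 91.5, 88.3 and 90.3 FPKM in *pif4-2* and 49.9, 65.2 and 54.9 FPKM in Col-0. It rose 1.59-fold in *pif4-2* (log2 fold change 0.67, SE 0.09, adjusted p = 0.00198, limma). *EXL5* was at 40.3, 40.1 and 37.55 FPKM in *bbx11-1*, 62.0, 63.9 and 67.3 FPKM in *pif4-2* and 26.8, 41.8 and 35.4 FPKM in Col-0. It rose 1.87-fold in *pif4-2* (log2 fold change 0.91, SE 0.13, adjusted p = 0.00251, limma). For both loci the *bbx11-1* libraries overlapped those of Col-0. The log2 fold change of *EXL3* in *bbx11-1* was 0.01 (95% CI -0.19 to 0.22, adjusted p = 0.984, limma), and its sign turned in some refits that left out libraries. That of *EXL5* was 0.20 (95% CI -0.08 to 0.49, adjusted p = 0.645, limma), and it was 0.03 without Col-0 replicate 1 and 0.35 without Col-0 replicate 2. Tested directly, *bbx11-1* was lower than *pif4-2* for *EXL3* (log2 fold change -0.66, adjusted p = 0.00442, limma) and for *EXL5* (log2 fold change -0.70, adjusted p = 0.0181, limma). The *EXL5* call, by the adjusted p alone, was lost in 5 of 9 refits that left out 1 library, each a *bbx11-1* or *pif4-2* library, with an adjusted p of 0.0552 to 0.0916 (limma). Without Col-0 replicate 1, the *pif4-2* log2 fold changes of *EXL2*, *EXL3* and *EXL5* were 0.63, 0.59 and 0.73, and each still passed the adjusted p (limma, 0.00421, 0.00365 and 0.0011).

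**Figure D1:**
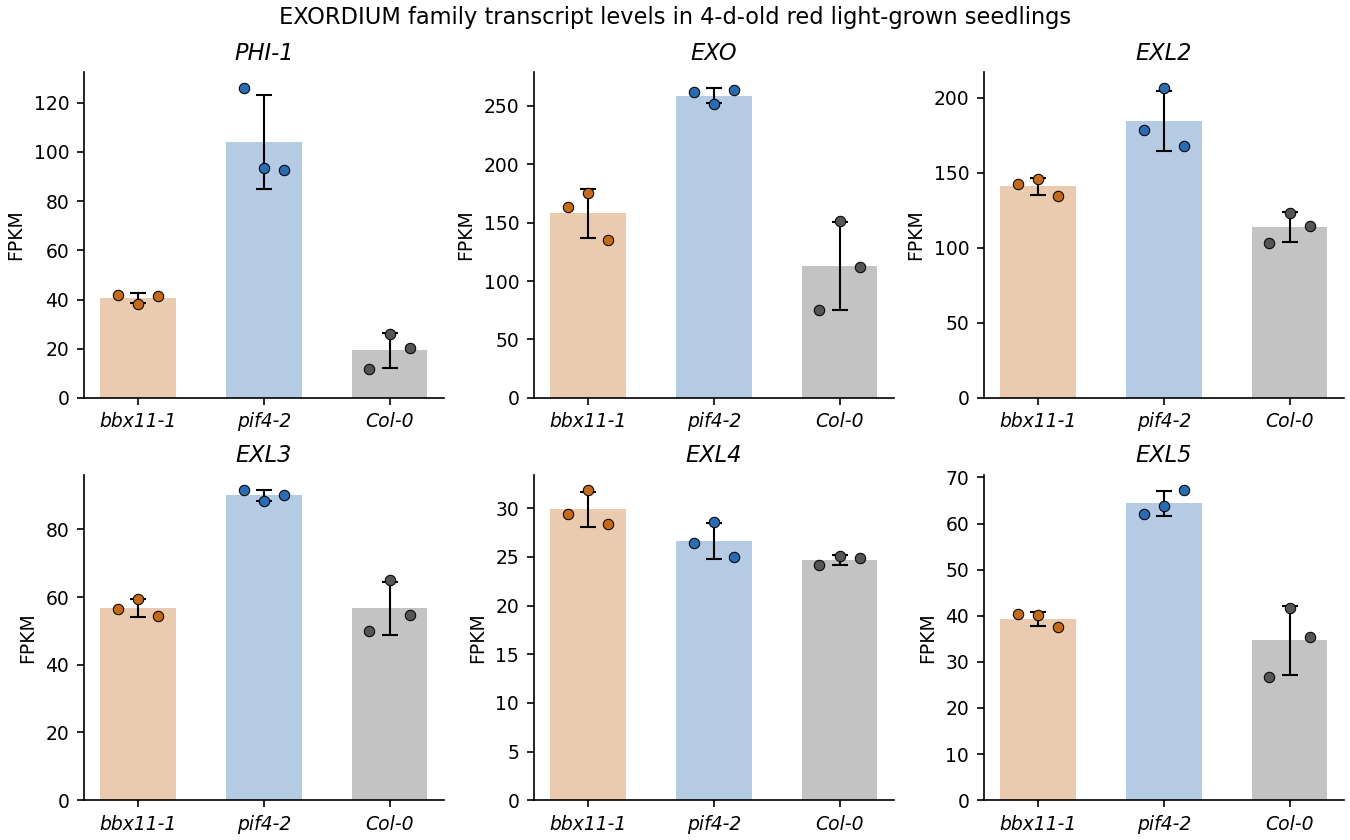
Transcript level in FPKM (y axis, starting at 0) of the 6 EXORDIUM loci in *bbx11-1*, *pif4-2* and Col-0 (x axis). Points are libraries in the order of replicates 1 to 3, bars are means and error bars are SD (n = 3). The *pif4-2* libraries lie above all others at every locus but *EXL4*, where they overlap both other genotypes.

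In *pif4-2* against Col-0, 2 of the 6 loci were counted as changed, *PHI-1* by the choice of the family and *EXO*, where 1.13% of all tested loci were. Of the 5 loci other than *PHI-1*, 1 was changed by both thresholds and 4 were higher by the adjusted p alone, where 0.783% and 2.88% of the tested loci were higher. The same 4 of 5 had every *pif4-2* library above every Col-0 library, where 10.2% of the tested loci had. In *bbx11-1* against Col-0, 0 of the 6 were changed (limma), where 0.146% of the tested loci were, and 3 of the 5 other than *PHI-1* had an unadjusted p below 0.05, where 10.7% of the tested loci had. Every *bbx11-1* library was above every Col-0 library for 2 of these 5, *EXL2* and *EXL4*, where 6.78% of the tested loci had that order. *PHI-1*, whose low Col-0 values were part of the choice, also met both. In *bbx11-1* against *pif4-2*, 0 of the 5 other than *PHI-1* were changed by both thresholds (limma), where 0.636% of the tested loci were, 2 of 5 were lower by the adjusted p alone, where 0.902% were, and 4 of 5 had an unadjusted p below 0.05, where 14.9% had. Every *bbx11-1* library was below every *pif4-2* library for 4 of these 5, where 9.8% of the tested loci had that order. The median log2 fold change of those 5 loci was 0.27 in *bbx11-1* and 0.69 in *pif4-2* against Col-0, beside 0.0035 and -0.021 over all tested loci. For *bbx11-1* against *pif4-2* it was -0.66, beside 0.015. The comparisons with Col-0 share its 3 libraries, so their values stand side by side only.

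**Figure D2:**
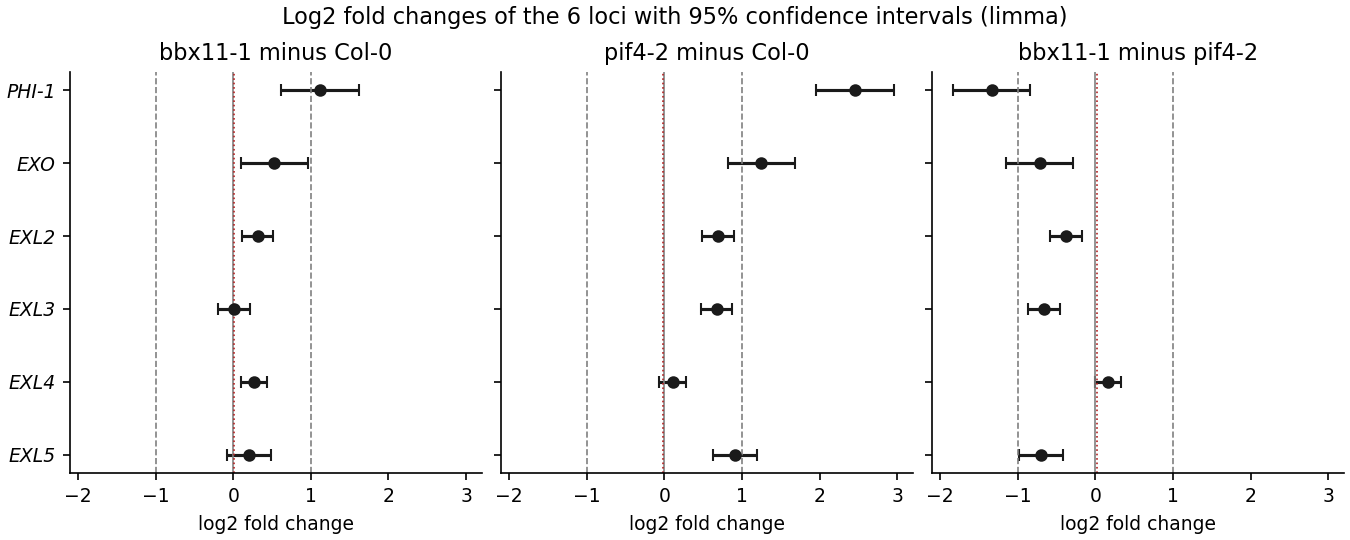
Log2 fold change (x axis) of each of the 6 loci (y axis) with its 95% confidence interval from limma, for *bbx11-1* minus Col-0, *pif4-2* minus Col-0 and *bbx11-1* minus *pif4-2*. Dashed lines mark a fold change of 2, the dotted line marks the median of all tested loci, and the *PHI-1* points of the middle and right panels are a description, since *PHI-1* in *pif4-2* chose the family. Of the 5 loci other than *PHI-1*, the middle panel shows 4 with an interval above 0, with *EXL4* at 0.11.

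The summed level of the 6 loci was 474, 491 and 432 FPKM in *bbx11-1*, 746, 732 and 707 FPKM in *pif4-2* and 291, 433 and 362 FPKM in Col-0. The sums of *pif4-2* lay above all others, and the *bbx11-1* replicate 3 sum lay within the Col-0 range. Sums and shares include *PHI-1*, whose rise in *pif4-2* chose the family, so they are a description without a test. The share of *PHI-1* in the sum was 8.74 ± 0.941% in *bbx11-1*, 14.3 ± 2.30% in *pif4-2* and 5.21 ± 1.06% in Col-0 (SD, n = 3 each), without overlap between the genotypes. The share of *EXL4* was 6.43 ± 0.196% in *bbx11-1*, 3.66 ± 0.213% in *pif4-2* and 6.99 ± 1.24% in Col-0. Its own mean level was 29.9 FPKM in *bbx11-1*, 26.7 FPKM in *pif4-2* and 24.7 FPKM in Col-0, so the lower share in *pif4-2* reflects the larger sum. *EXO* made up 33.8 ± 2.33% of the sum in *bbx11-1*, 35.6 ± 1.55% in *pif4-2* and 30.6 ± 4.55% in Col-0.

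**Figure D3:**
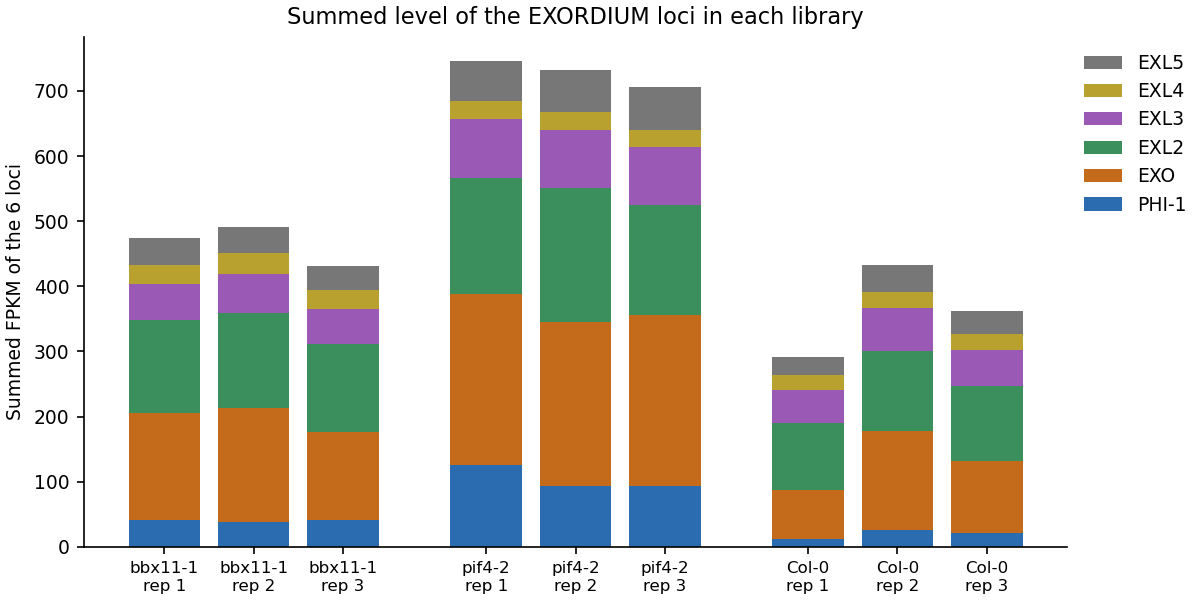
Summed FPKM of the 6 loci (y axis, starting at 0) in each library (x axis), stacked by locus. The *pif4-2* sums range over 707 to 746 FPKM, above the 432 to 491 FPKM of *bbx11-1* and the 291 to 433 FPKM of Col-0. The sums include *PHI-1*, which chose the family.

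The order of the loci by level shifted with *PHI-1*. In *pif4-2*, *EXO* was followed by *EXL2*, *PHI-1*, *EXL3*, *EXL5* and *EXL4*, and no neighbours in this order overlapped. In *bbx11-1* the order was *EXO*, *EXL2*, *EXL3*, *PHI-1*, *EXL5* and *EXL4*, where *EXO* overlapped *EXL2* and *PHI-1* overlapped *EXL5*. In Col-0 *PHI-1* was the lowest of the 6 and overlapped *EXL4*, while *EXL2* and *EXO* overlapped at the top. Over the 9 libraries, the mean levels ranged from that of *EXL4*, above 77.2% of the tested loci, to that of *EXO*, above 96.8%.

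Between the Col-0 replicates the loci varied together. All 6 were lowest in Col-0 replicate 1, and the mean log2 level of the 6 deviated from the Col-0 mean by -0.31, 0.27 and 0.04 in replicates 1 to 3. *PHI-1* alone deviated by -0.63, 0.48 and 0.15, and *EXO* by -0.52, 0.48 and 0.04. *EXL4* moved little, by -0.03, 0.02 and 0.01. The low Col-0 replicate 1 was not particular to the family, since the mean log2 level of every gene list described below was also lowest there. It deviated by -0.22 for the *EXO*-linked, -0.18 for the brassinosteroid, -0.07 for the carbon starvation and -0.32 for the touch list. For the phosphate starvation list it was -0.150, beside -0.145 in replicate 2. The share of all tested loci lowest in Col-0 replicate 1 is not given here. Taking the deviations from the genotype means over all 9 libraries, Pearson's r was 0.963 between *EXO* and *EXL3*, 0.960 between *EXO* and *EXL5*, 0.901 between *EXL3* and *EXL5* and 0.814 between *PHI-1* and *EXO*. *EXL2* and *EXL4*, whose levels over the 9 libraries had an r of 0.416, had an r of 0.835 in these deviations. The wide Col-0 deviations carried some of these values. Over the 6 mutant libraries alone, a choice made after seeing the data, r was -0.13 between *PHI-1* and *EXO* and 0.421 between *EXL3* and *EXL5*, whereas it was 0.909 between *EXO* and *EXL3*, 0.678 between *EXO* and *EXL5* and 0.909 between *EXL2* and *EXL4*. Between *PHI-1* and *EXL5* it was 0.813 over all 9 libraries and -0.625 over the mutants. For *PHI-1* and *EXL3* the values were 0.792 and 0.042. In *pif4-2* replicate 3, for example, *EXL5* deviated by 0.06 and *PHI-1* by -0.15. These correlations describe shared libraries and were given no p. On this log2 scale *PHI-1*, *EXO*, *EXL3* and *EXL5* deviated more in Col-0 than in either mutant.

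**Figure D4:**
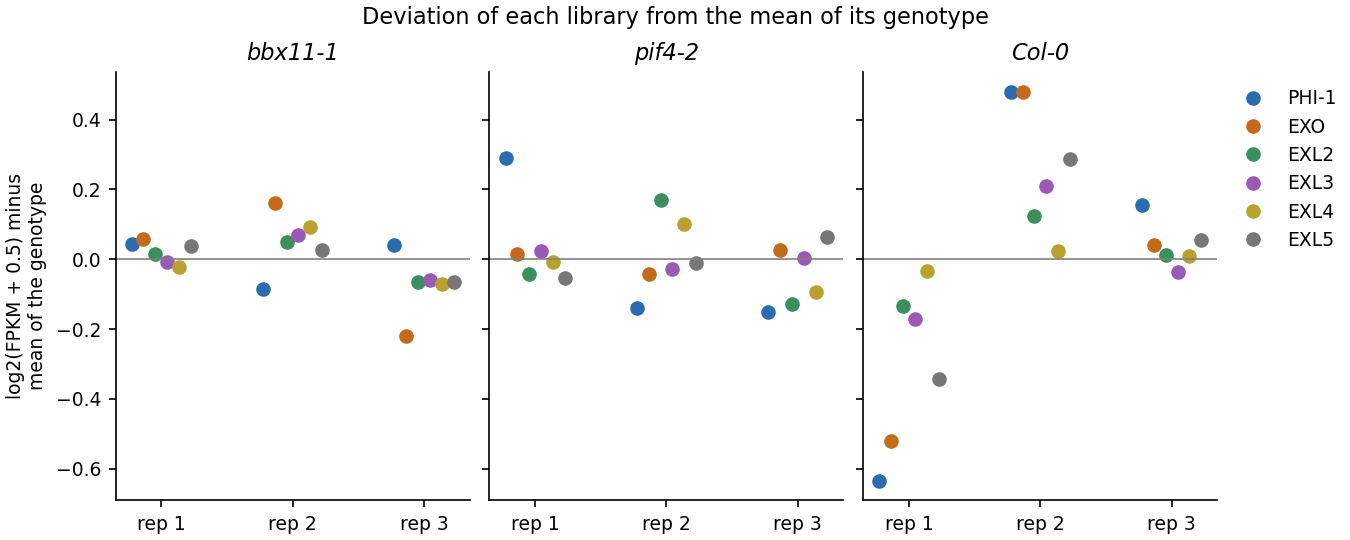
Deviation of log2(FPKM + 0.5) from the mean of the genotype (y axis) for the 6 loci in replicates 1 to 3 (x axis) of *bbx11-1*, *pif4-2* and Col-0. In Col-0 replicate 1 all 6 loci lie below 0, from -0.63 for *PHI-1* to -0.03 for *EXL4*.

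The annotation holds a pair of further family loci, which were weakly expressed or silent. *EXL7* (AT2G35150) had 1.09 ± 0.161 FPKM in *bbx11-1*, 1.80 ± 0.283 FPKM in *pif4-2* and 1.58 ± 0.1002 FPKM in Col-0 (SD, n = 3 each), and neither mutant differed from Col-0 by the test (adjusted p = 0.407 for *bbx11-1* and 0.750 for *pif4-2*, limma). Every *bbx11-1* library of *EXL7* was below every Col-0 and every *pif4-2* library. The order against *pif4-2* was found for 9.8% of the tested loci, and the share with the order against Col-0 is not given here. Its log2 fold change in *bbx11-1* against Col-0 was -0.39 (unadjusted p = 0.0332, limma), opposite in sign to those of the 6 loci above. Against *pif4-2* it was -0.53 (unadjusted p = 0.00702, adjusted p = 0.134, limma). An unadjusted p below 0.05 was found for 10.7% of the tested loci in *bbx11-1* against Col-0 and for 14.9% in *bbx11-1* against *pif4-2*. With *EXL7* added to the 5 loci other than *PHI-1*, 4 of 6 were higher in *pif4-2* by the adjusted p. *EXL7* added no locus to those with every *bbx11-1* library above every Col-0 library. *EXL6* (AT3G02970) was listed at 0 in every library except *pif4-2* replicate 1, with 0.05 FPKM, and was not tested. It overlaps AT3G02975 over 352 bases, and the strand setting of the counting is not given in the sources used here.

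The loci with the profile most like that of *PHI-1* over the 9 libraries, by Pearson's r of the log2 values, were AT4G01090, *ACA1*, AT4G19520, *AGP1*, *MPK3*, *TCH4*, AT2G27080, AT3G56880, *CRK10* and *NSL1*, with r between 0.985 and 0.991. *ACA1* encodes a calcium pump, *AGP1* an arabinogalactan protein of the cell wall, *MPK3* a stress-activated MAP kinase, *TCH4* a xyloglucan endotransglucosylase and *CRK10* a receptor-like kinase. *TCH4* was the most abundant of the 10, with 135 ± 6.17 FPKM in *bbx11-1*, 255 ± 26.6 FPKM in *pif4-2* and 79.6 ± 27.5 FPKM in Col-0 (SD, n = 3 each). *MPK3* had 66.6 ± 2.27 FPKM in *bbx11-1*, 96.5 ± 3.83 FPKM in *pif4-2* and 50.1 ± 7.30 FPKM in Col-0. All 10 thus ran in the order *pif4-2*, *bbx11-1*, Col-0 by their means, as the measure of likeness selects. Among the family, *EXO* ranked 67th in likeness to *PHI-1* (r = 0.961), *EXL2* 111th, *EXL5* 127th, *EXL3* 293rd and *EXL4* 4373rd (r = 0.306). The 5 loci most like *EXO* were *ACS11*, *RALFL33*, *MYBR1*, *PUB23* and *TIP*, with r between 0.976 and 0.989, and *EXL5* ranked 15th and *PHI-1* 26th. *MYBR1*, also called *MYB44*, is a stress-induced transcription factor gene that also stands in the touch and rapid stress response list below.

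Lists of genes around the known inputs and outputs of the family were then described by counts. Among all tested loci, 0.0887% were higher in *bbx11-1* by both thresholds and 0.271% by the adjusted p alone. In *pif4-2*, 0.35% were lower by both thresholds, 1.95% were lower by the adjusted p alone and 16.6% had an unadjusted p below 0.05, beside the shares given above. Of 5 genes reported to rise with *EXO* overexpression, *AGP4*, *EXPA5*, *DELTA-TIP*, *KCS1* and *WAK1*, 0 passed the adjusted p in either mutant (limma), 1 had an unadjusted p below 0.05 in each mutant, and the median log2 fold change was 0.13 in *bbx11-1* and -0.0074 in *pif4-2*. *DELTA-TIP*, an aquaporin gene and the most abundant of them, had 938 ± 205 FPKM in *bbx11-1*, 805 ± 44.1 FPKM in *pif4-2* and 840 ± 264 FPKM in Col-0.

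Of 13 tested genes of brassinosteroid synthesis and response, 1 was higher and 1 lower in *pif4-2* by both thresholds. The higher one was *TCH4* (log2 fold change 1.72, adjusted p = 0.000479, limma), which is also a touch gene, and the lower one was *PRE1*, a growth-promoting HLH gene (log2 fold change -1.15, adjusted p = 0.0136, limma). *BR6OX2*, of the last steps of brassinosteroid synthesis, fell by the adjusted p alone (log2 fold change -0.50, adjusted p = 0.0225, limma). In *bbx11-1*, 0 of the 13 passed the adjusted p (limma). An unadjusted p below 0.05 was found for 4 of the 13 in *bbx11-1* and 7 of the 13 in *pif4-2*. The median log2 fold change of the list was 0.07 in *bbx11-1* and -0.16 in *pif4-2*.

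Of 13 carbon starvation genes, 0 passed both thresholds in either mutant (limma). By the adjusted p alone 3 were higher in *pif4-2*, *DIN10*, *TPS8* and *TPS9*, and 1 was lower, *KMD4* (AT3G59940). The largest difference was that of the beta-glucosidase gene *DIN2*, with 0.97 ± 0.276 FPKM in *pif4-2* and 5.12 ± 1.73 FPKM in Col-0 (log2 fold change -1.90, adjusted p = 0.0519, limma), which did not pass. In *bbx11-1* 1 was higher, *SEN1* (log2 fold change 0.97, adjusted p = 0.0232, limma), with 126 ± 15.7 FPKM against 64.4 ± 11.5 FPKM in Col-0. At an unadjusted p below 0.05 there were 9 of 13 in *bbx11-1* and 10 of 13 in *pif4-2*, and the median log2 fold changes were 0.33 and 0.27. *BT2*, the most abundant of them and encoding a BTB domain protein, had 414 ± 29.8 FPKM in *bbx11-1*, 456 ± 16.9 FPKM in *pif4-2* and 375 ± 7.87 FPKM in Col-0, and passed the test in neither mutant. Of 14 phosphate starvation genes, 9 were tested. The phosphate sensor gene *SPX1* fell in *pif4-2* by the adjusted p alone, with 21.7 ± 5.28 FPKM in *pif4-2* and 38.3 ± 4.07 FPKM in Col-0 (log2 fold change -0.83, adjusted p = 0.0149, limma), and 2 of the 9 had an unadjusted p below 0.05. In *bbx11-1* 0 of the 9 passed the adjusted p (limma) and 0 had an unadjusted p below 0.05.

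The touch and rapid stress response list had the highest median of the 5 lists in both mutants. It was compiled with results of these data known, and it holds AT1G07135 and *BCB*, loci already known to be raised here, so its direction is not independent evidence. Of its 12 genes, 9 were higher in *pif4-2* by both thresholds and 11 by the adjusted p alone. The largest rises by log2 fold change were those of AT1G07135, a glycine-rich protein gene (2.00, adjusted p = 0.000298, limma), *BCB*, a blue copper-binding protein gene (1.76, adjusted p = 0.00066, limma), *TCH4* (1.72) and *CML38*, a calmodulin-like gene (1.52). The most abundant member was the calmodulin-like gene *TCH3*, with 148 ± 4.30 FPKM in *bbx11-1*, 238 ± 18.0 FPKM in *pif4-2* and 106 ± 38.7 FPKM in Col-0 (SD, n = 3 each). In *bbx11-1*, 3 were higher by both thresholds, AT1G07135 (log2 fold change 1.37), *BCB* (1.24) and the transcription factor gene *WRKY40* (1.08), and 5 by the adjusted p alone. The median log2 fold change was 0.80 in *bbx11-1* and 1.21 in *pif4-2*. In *bbx11-1* against *pif4-2*, 1 of the 12 was lower by the adjusted p, *TCH4* (log2 fold change -0.91, adjusted p = 0.0301, limma). The mean log2 level of the list deviated from the Col-0 mean by -0.32, 0.34 and -0.02 in Col-0 replicates 1 to 3, beside the -0.31, 0.27 and 0.04 of the EXORDIUM loci. The other lists were also lowest in Col-0 replicate 1, by -0.22 to -0.07. The part of these deviations in the results was not tested.

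**Figure D5:**
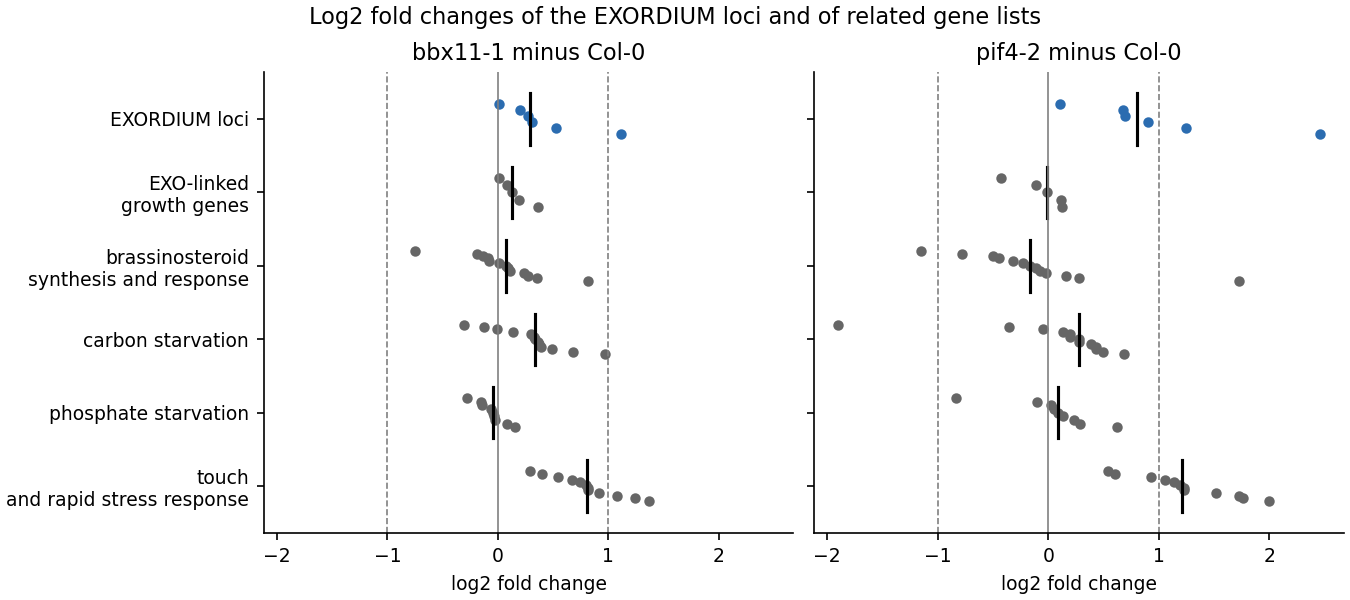
Log2 fold changes (x axis) of the 6 EXORDIUM loci and of the genes of 5 lists (y axis) in *bbx11-1* minus Col-0 and *pif4-2* minus Col-0. Each point is a locus, black bars are medians and dashed lines mark a fold change of 2. The EXORDIUM medians, 0.29 in *bbx11-1* and 0.80 in *pif4-2*, include *PHI-1*, which chose the family, and are 0.27 and 0.69 without it.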

How the data were processed

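Poly(A) RNA of whole seedlings was sequenced in 9 libraries, 3 of each genotype, with genotype and number read from the titles. Reads were aligned by the authors with Hisat2 on TAIR10 and counted with HTSeq, and the deposited tables give FPKM, 1 value per locus and library. The step from counts to FPKM, the strand setting and the treatment of reads with several alignments are not given in the sources used here. The study's methods and the labels name different Illumina sequencers.

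The members and gene lists were chosen with earlier results of these data known. FPKM is not a count, and the deposited values were therefore tested with limma (version 3.58.1, R 4.3.3; lmFit, eBayes with an intensity trend) on log2(FPKM + 0.5) in one fit of all 9 libraries with 6 residual degrees of freedom. Loci whose mean reached 1 FPKM in any genotype were kept, 19169 of 33602. The scale understates the change of weakly expressed loci. The fit was tested on simulated data. The loci named were the family, *BBX11* and *PIF4*, the 10 and 5 loci most like *PHI-1* and *EXO*, and from each list up to 4 members past both thresholds and the most abundant member; *BR6OX2*, *SEN1*, *DIN2*, *DIN10*, *TPS8*, *TPS9* and *KMD4*, and the choice of *MPK3* for its values, were added after the values were seen. Positions, proteins and promoters came from TAIR10.1, which matched 32835 of the identifiers. Protein identity was computed with Biopython 1.88. Depth was read from the spacing of low values of loci under 500 nt, at the depth where most of them fell on whole reads. The search kept to a range of depths set in advance, since multiples of the true depth also give whole reads. At the chosen depth 69.8% to 79.1% fell within 0.1 of a whole read, the best share over the depths searched. A uniform spread gives 20% at any single depth fixed in advance.

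Replicates carry the numbers 1 to 3 in each genotype. Deviations of same-numbered libraries from their genotype means correlated across loci at 0.549, 0.287 and 0.275 between *bbx11-1* and Col-0. The correlations were 0.0717, 0.0625 and 0.0217 between *pif4-2* and Col-0, and 0.0921, 0.0264 and -0.00819 between *bbx11-1* and *pif4-2*. Libraries of different number were not compared, and the labels do not say that the number marks a shared batch. The main fit held genotype only and used no pairing. Replicate number entered only the refit with a replicate block. Alternatives were other fold thresholds, pseudocounts, filters and scalings, a fit of only the genotypes compared, a replicate block, array weights, no intensity trend, and leaving out libraries.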

Additional observations from a re-analysis of the deposited data

How the results depend on the processing

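The 18 fold changes of the 6 loci were refitted 360 times in all, and 339 refits were labelled the same. For *PHI-1* in *pif4-2* against Col-0 and in *bbx11-1* against *pif4-2*, this used no adjusted p. There it meant the same direction and a log2 fold change within 1 SD of the reported one. For all other fold changes it meant the same direction and side of the adjusted p threshold. Of the remaining refits, 6 lost the call by the adjusted p alone, 11 gained one and 4 turned sign. The 4 were all *EXL3* in *bbx11-1* against Col-0, which ranged over -0.0740 to 0.117 leaving out 1 library at a time, at -0.0740 without Col-0 replicate 1, -0.00687 without Col-0 replicate 3, -0.02 without *bbx11-1* replicate 2 and -0.0697 with the libraries numbered 1 of Col-0 and *bbx11-1* both left out. The count of changed loci in *pif4-2* against Col-0 was 2. It was 5 with no fold threshold and 5 with a fold of 1.5, since the fold criterion was dropped or lowered. With both libraries numbered 1 left out it was 1. Leaving out 1 library at a time it was 1 to 3, with 1 without Col-0 replicate 1 (*EXO* at 0.99) and 3 without Col-0 replicate 2, when *EXL5* passed. In *bbx11-1* against Col-0 the count was 0 to 1 leaving out 1 library, with *PHI-1* called without Col-0 replicate 2, and 0 in every other alternative. That call rests on the low Col-0 values of *PHI-1*, which were part of the choice of the family. In *bbx11-1* against *pif4-2* the count holds *PHI-1*, whose choice used these values, so that its course describes *PHI-1* and tests nothing. It was 1 as reported, 3 with no fold threshold, 3 with a fold of 1.5, when *EXL3* and *EXL5* joined, and 0 without the filter on low values, and 0 to 1 leaving out 1 library, with 0 without *pif4-2* replicate 1. The cause of the remaining shifts was not tested.

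In the fit with a replicate block, the counts were 0, 2 and 1 in the 3 comparisons, and *PHI-1* in *bbx11-1* against Col-0 had an adjusted p of 0.0633 (limma). By the adjusted p alone, the block changed the calls of *EXO* (adjusted p = 0.0487, limma) and *EXL2* (adjusted p = 0.0202, limma) in *bbx11-1* against *pif4-2*, and no other call of the 6 loci. Both stayed below the fold threshold. *EXL5* in that comparison lost its call by the adjusted p alone without the filter (adjusted p = 0.0625, limma) and in 5 refits that left out 1 library. The files give no reads per locus, so that counting error was not modelled. *PHI-1* and *EXO* had the widest spread among the Col-0 libraries on the log2 scale.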
